A study of Mus musculus with 16 samples.

Results

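The comparison described here sets aged interfollicular epidermis (IFE) against young IFE of the mouse, in 4 of the 16 microarrays of a study of skin stem cells. The members are the IFE arrays themselves, 2 from aged mice of 25 to 26 months and 2 from young mice of 12 weeks. Within each age 1 array came from wild-type (WT) C57BL/6 mice and 1 from mice labelled hCOL17A1 tg, whose strain background the labels do not name, so the ages were compared within 2 genotype pairs. The transgene encodes human type XVII collagen, a transmembrane collagen of hemidesmosomes, and the labels do not name the promoter that drives it. The protocol lists RU486, an activator of inducible Cre recombinases, and hair depilation for the series, and the labels of the 4 IFE arrays mention neither. The labels do not state how many mice gave the cells of an array, so each group is 1 array with no replicate of its own. The other 12 arrays hold hair follicle stem cells (HFSC) from 6 conditions and served to estimate the spread.

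The IFE is the stratified sheet of skin between the hair follicles. Its basal cells, held to the basement membrane by hemidesmosomes, divide and pass upward through a spinous and a granular layer to the cornified layer, where transglutaminases cross-link envelope proteins such as involucrin and loricrin and secreted lipids seal the barrier. Resident Langerhans cells and dendritic epidermal T cells live among the keratinocytes. The IFE cells here were sorted for high ITGA6, an integrin of the basal layer, and high Sca1, the protein of Ly6a, so they are enriched for basal and not for cornified cells.

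Both aged arrays lay below both young arrays for 18 of 25 measured granular and cornified layer genes and for 12 of 24 sterol synthesis genes, and this order held for 21.8% of all genes. Single genes with this order included the stefin Stfa1, the serpins Serpinb3c and Serpinb3a, the T cell gene Cd3g, the Langerhans cell gene Cd207 and the haemoglobin gene Hba-a1. The cell type lists were mixed, with this order in 6 of 14 T cell, 6 of 15 Langerhans and myeloid and 2 of 3 erythroid genes. The rest of those lists overlapped between the ages, except 1 gene with the opposite order. Both aged arrays lay above both young arrays for 12 of 31 interferon and antigen presentation genes and below them for 5. They lay above for 12 of 39 cell cycle genes, whose median in the hCOL17A1 pair was -0.03, and for 15.6% of all genes. Single genes on this side included the immunoproteasome subunits Psmb8 and Psmb9, the GTPase Irgm2 and the cell cycle genes Ccnd1, Rrm1 and Mcm7. None of these differences passed the test across all genes, and they are described below by their values on each array. Values are levels on the log2 scale relative to the 75th percentile of the array's probes, so a difference of 1 is 2-fold. Levels were compared between arrays for the same probe and not between genes. Where the levels of a list were summed, the brightest probes weigh most in the sum.

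3 sets of promoters are shown because their genes lay on the same side in both pairs: a pair of cornified envelope genes, a pair of sterol synthesis genes and a pair of interferon-inducible genes. Sequences are from RefSeq (GRCm38.p6), run 5′ to 3′ on the strand of the gene from 250 bases before the start site to 50 after it, and capitals mark matches to 1 motif on either strand. For Ivl and Sprr1b the capitals mark TGANTCA, the letters bound by AP-1 factors.
Ivl, chr3:92573686-92573985, minus strand: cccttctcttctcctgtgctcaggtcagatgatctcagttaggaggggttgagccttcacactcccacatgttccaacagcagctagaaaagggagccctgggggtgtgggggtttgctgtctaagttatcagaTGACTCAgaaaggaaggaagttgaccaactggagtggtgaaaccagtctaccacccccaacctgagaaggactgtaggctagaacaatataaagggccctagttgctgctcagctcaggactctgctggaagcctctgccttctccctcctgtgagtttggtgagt
Sprr1b, chr3:92438730-92439029, minus strand: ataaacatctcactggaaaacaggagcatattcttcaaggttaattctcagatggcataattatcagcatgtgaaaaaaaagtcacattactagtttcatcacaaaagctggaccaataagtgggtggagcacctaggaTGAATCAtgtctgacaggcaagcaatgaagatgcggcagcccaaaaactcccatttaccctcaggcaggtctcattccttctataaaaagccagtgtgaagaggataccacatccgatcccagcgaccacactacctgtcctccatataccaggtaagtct
For Msmo1 and Idi1 they mark CCAAT or its reverse complement ATTGG, the box bound by NF-Y.
Msmo1, chr8:64733529-64733828, minus strand: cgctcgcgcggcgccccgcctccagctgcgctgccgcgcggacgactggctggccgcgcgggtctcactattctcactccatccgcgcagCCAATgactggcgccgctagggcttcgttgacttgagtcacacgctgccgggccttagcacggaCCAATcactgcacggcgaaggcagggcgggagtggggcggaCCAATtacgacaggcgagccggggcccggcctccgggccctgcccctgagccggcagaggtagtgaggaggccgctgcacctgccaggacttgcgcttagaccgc
Idi1, chr13:8885356-8885655, plus strand: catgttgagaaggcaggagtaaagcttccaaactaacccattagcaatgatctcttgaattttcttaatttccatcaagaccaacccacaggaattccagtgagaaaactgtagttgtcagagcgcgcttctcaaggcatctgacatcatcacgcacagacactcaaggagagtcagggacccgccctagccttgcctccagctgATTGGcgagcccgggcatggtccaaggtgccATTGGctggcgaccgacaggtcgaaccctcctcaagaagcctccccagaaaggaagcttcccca
For Irgm2 and Oas3 they mark GAAANNGAA or TTCNNTTTC, the core of the interferon-stimulated response element.
Irgm2, chr11:58214727-58215026, plus strand: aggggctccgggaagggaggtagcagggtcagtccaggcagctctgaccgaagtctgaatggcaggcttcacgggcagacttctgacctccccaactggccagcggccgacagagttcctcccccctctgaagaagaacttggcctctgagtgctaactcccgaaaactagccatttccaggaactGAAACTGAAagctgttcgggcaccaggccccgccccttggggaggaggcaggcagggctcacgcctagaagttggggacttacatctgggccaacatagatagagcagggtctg
Oas3, chr5:120777610-120777909, minus strand: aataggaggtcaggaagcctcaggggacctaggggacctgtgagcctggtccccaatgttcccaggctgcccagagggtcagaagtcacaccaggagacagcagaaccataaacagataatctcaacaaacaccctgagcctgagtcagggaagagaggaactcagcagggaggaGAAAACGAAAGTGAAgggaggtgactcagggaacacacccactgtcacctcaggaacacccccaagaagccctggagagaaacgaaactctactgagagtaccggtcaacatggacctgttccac
None of these motifs contains another. Among 32851 RefSeq promoters of the same length, TGANTCA occurred in 7.81%, against 9 of the 29 promoters found for 27 of 30 granular and cornified genes. CCAAT occurred in 37.4% of all promoters and in 16 of the 19 found for 16 of 24 sterol genes. GAAANNGAA occurred in 8.56% of all promoters and in 15 of the 34 found for 29 of 36 interferon and antigen presentation genes. A longer form with a further A at its 3′ end, which was counted first, occurred in 3.44% and in 14 of the 34. A match describes letters in the window and was not tested as a binding site.

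Markers of the sort were present on all 4 arrays. Krt5 and Krt14, the basal keratins, stood at 8.93 and 9.55 on the aged WT array, 8.85 and 9.66 on aged hCOL17A1, 8.93 and 9.51 on young WT and 9.23 and 8.86 on young hCOL17A1. Ly6a, which encodes the sorted Sca1 antigen, stood at 4.23 (aged WT) and 3.52 (aged hCOL17A1), against 3.99 (young WT) and 3.28 (young hCOL17A1), and its highest level among the 12 HFSC arrays was 1.02. Itga6 stood at 5.32 and 5.09 on the aged arrays, against 5.24 and 4.82 on the young ones. Cd34, the surface marker of the HFSC sort, stood at -3.52 and -2.45 on the aged arrays, against -3.03 and -2.73 on the young ones, and its lowest level among the HFSC arrays was 2.07. The genes of both sort antigens overlapped between the ages.

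The young hCOL17A1 array stood apart. Across the 27881 genes tested it correlated with the other 3 at 0.913 to 0.919, and those 3 correlated with each other at 0.976 to 0.982. Genes with several probes gave a further measure. In the hCOL17A1 pair the age differences of probes of 1 gene lay more than 1 log2 unit apart for 59.2% of 8586 such genes, and in the WT pair for 23.2%. Between the 2 young arrays the share was 58.6%, and between the 2 aged arrays 19.7%. The standard deviation of the differences across genes was 1.23 in the hCOL17A1 pair and 0.62 in the WT pair. Results are therefore given for each pair, and the WT pair holds none of the young hCOL17A1 array. All 4 arrays lay in the same row of 1 slide, the aged ones in columns 3 and 4 and the young ones in columns 1 and 2, so age cannot be told apart from that position.

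Transcripts that mark sex also differed between the arrays, and the labels give no sex. Xist, the RNA that coats the inactive X chromosome, stood at 4.71 on aged WT and -4.07 on aged hCOL17A1, against 4.28 on young WT and 2.54 on young hCOL17A1. The Y-linked Ddx3y stood at -6.60 on aged WT and 0.11 on aged hCOL17A1, against -2.24 on young WT and -0.64 on young hCOL17A1. Eif2s3y stood at -5.18 and -0.33 on the aged arrays, against -1.52 and -0.24 on the young ones, with aged WT the lowest. Each aged array thus held transcripts of 1 sex, opposite in the 2 genotypes, and both young arrays held transcripts of both. Sex composition therefore differed within each genotype pair, and its part in the results below was not tested.

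**Figure D1:**
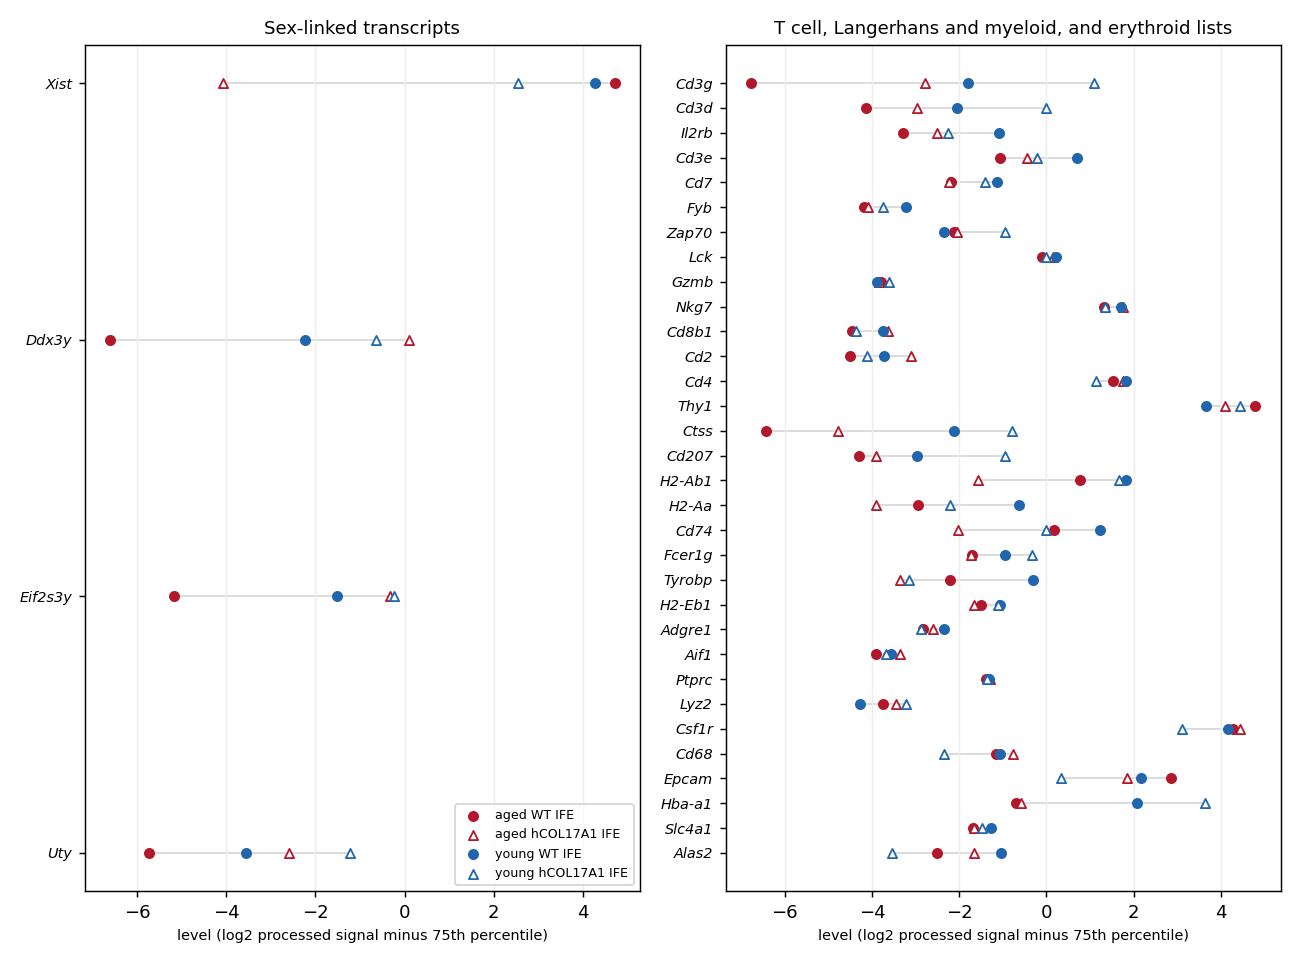
Level of each gene (x axis, log2 processed signal minus the array's 75th percentile) on the 4 IFE arrays, aged in red and young in blue, WT as circles and hCOL17A1 as open triangles. Left, the aged hCOL17A1 array has Xist at -4.07 and the aged WT array has Ddx3y at -6.60. Right, all 32 measured genes of the T cell, Langerhans and myeloid, and erythroid lists are drawn. Of these 14 have both aged arrays below both young ones, 1 has both above and 17 overlap. Over all genes 21.8% have both aged arrays below and 15.6% both above.

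No gene passed an adjusted p of 0.05 in limma's test of the age term (0 of 27881, 0%), and 1824 genes (6.54%) had an unadjusted p under 0.05. An exact permutation of 2 against 2 arrays cannot go below a two-sided p of 0.333. Without the aged WT array 382 genes passed, and without the young WT array 356, since the age term is then the hCOL17A1 pair alone and its lone arrays are assumed to vary like the HFSC arrays. Without either hCOL17A1 array 1 gene passed. The median difference over all genes was -0.10, with -0.06 in the WT pair and -0.05 in the hCOL17A1 pair. Both aged arrays lay above both young arrays for 4345 genes (15.6%) and below them for 6087 (21.8%). At least 2-fold differences of the same sign in both pairs were found for 318 genes higher (1.14%) and 361 genes lower (1.29%) in aged IFE. In the WT pair alone 886 genes were at least 2-fold higher (3.18%) and 1472 at least 2-fold lower (5.28%), and in the hCOL17A1 pair 4197 (15.1%) and 5579 (20.0%). Across genes the differences of the 2 pairs, which share no array but share the scale and the probes, correlated at 0.12. The plot of both pairs shows a cloud that is wide along the hCOL17A1 axis.

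**Figure D2:**
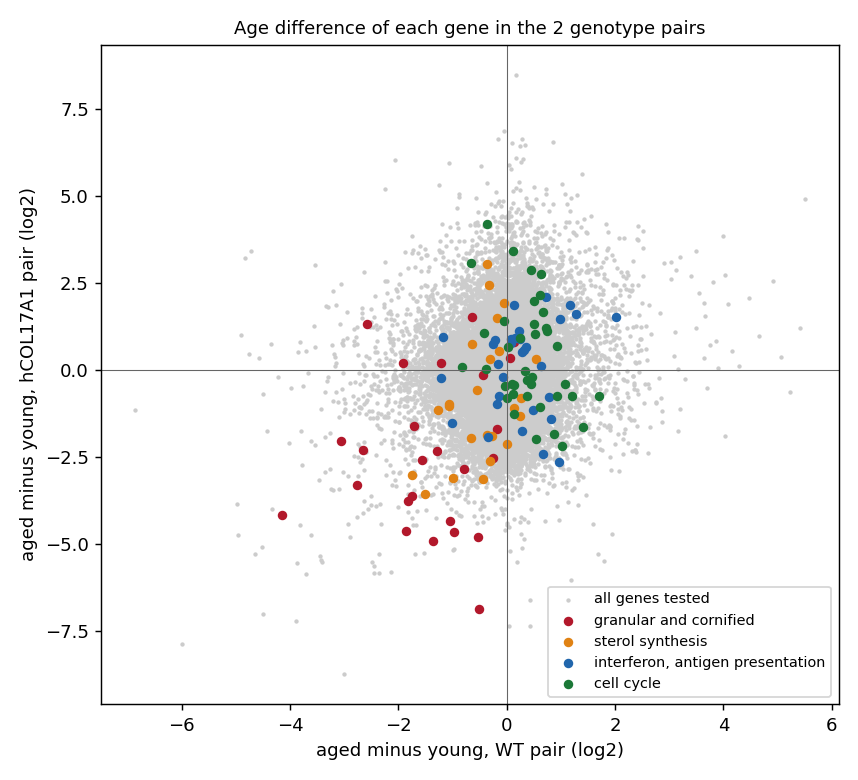
Each point is a gene, with the aged minus young difference (log2) of the WT pair on the x axis and of the hCOL17A1 pair on the y axis. Granular and cornified genes gather in the lower left quadrant, where both aged arrays are lower; over all genes the correlation is 0.12.

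Granular and cornified layer genes formed the list with the lowest median difference. Of 30 listed genes 25 were measured, and their median difference was -2.07, against -0.10 over all genes, with -1.28 in the WT pair and -2.52 in the hCOL17A1 pair. Both aged arrays lay below both young arrays for 18 of the 25 and above them for 1, against 21.8% and 15.6% of all genes. At least 2-fold lower levels in both pairs were found for 12 of 25, against 1.29% of all genes. In the WT pair alone they were found for 15 of 25, against 5.28%. None passed the test across all genes, and 11 had an unadjusted p under 0.05, against 6.54% of all genes. In bulk arrays like these, fewer cells of a type and less RNA per cell cannot be told apart.

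Among them were the kallikrein proteases that cut corneodesmosomes and one of their substrates. Klk7 stood at 0.73 (aged WT) and -0.42 (aged hCOL17A1), against 1.69 (young WT) and 4.24 (young hCOL17A1), a difference of -2.81 ± 0.83 (SE; limma adjusted p = 0.729). Klk5 stood at 0.44 and -0.59 on the aged arrays, against 1.80 and 4.31 on the young ones (-3.13 ± 0.95). Corneodesmosin, Cdsn, stood at -0.86 and -1.42 on the aged arrays, against 0.99 and 3.19 on the young ones (-3.23 ± 1.01). In all 3 genes the aged hCOL17A1 array was the lowest and the young hCOL17A1 array the highest, and the ages did not overlap. Alox12b, a lipoxygenase needed for the lipid envelope, stood at -1.46 and -1.96 on the aged arrays, against 1.30 and 1.34 on the young ones (-3.03 ± 1.0), so both pairs differed by more than 2-fold. Another probe of Alox12b gave a difference of -0.07.

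The structural proteins of the envelope, named after their values were seen, lay on the same side. Ivl, encoding involucrin, stood at -2.18 and -1.65 on the aged arrays, against -0.44 (young WT) and 1.97 (young hCOL17A1), and its 2 probes gave differences of -2.68 and -2.06. Lor, encoding loricrin, stood at 2.65 and 1.53 on the aged arrays, against 3.18 and 6.33 on the young ones, so most of its difference lay in the hCOL17A1 pair. Flg, encoding the filaggrin precursor, stood at 0.11 and -0.80 on the aged arrays, against 1.94 and 2.97 on the young ones, and the differences of its 3 probes ran from -2.80 to -0.24. Sprr1b, a small proline-rich envelope protein induced in stressed epidermis, was not well above background on either aged array. It passed the filter on low values through the young arrays alone. Its level on the young arrays was -1.28 and 0.05, at least 17.4-fold higher than in aged IFE (adjusted p = 0.729; measured means of -4.76 in aged and -0.61 in young IFE). Of the other members 6 overlapped between the ages, and Tgm3, a transglutaminase, had both aged arrays above both young ones, with a difference of 0.46.

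**Figure D3:**
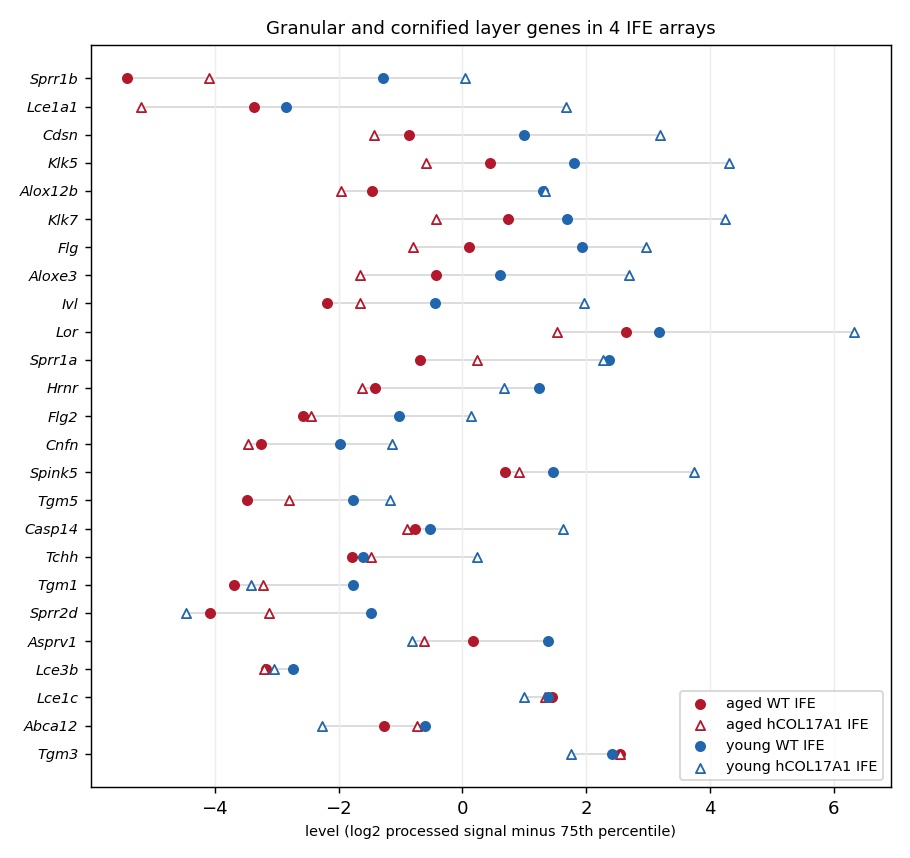
Level of the 25 measured granular and cornified layer genes (x axis, log2 processed signal minus the array's 75th percentile) on the 4 IFE arrays, aged in red and young in blue, WT as circles and hCOL17A1 as open triangles. Genes run from the lowest fitted aged minus young difference at the top to the highest at the bottom. Of these 18 have both aged arrays below both young ones, against 21.8% of all genes.

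Spinous layer genes had a smaller difference. All 20 listed genes were measured, with a median of -0.67 (-0.48 in the WT pair and -0.96 in the hCOL17A1 pair). Of these 13 had both aged arrays below both young ones and 0 above, against 21.8% and 15.6% of all genes. Calml3, a calmodulin-like protein of differentiating epithelium, stood at 0.59 and 0.41 on the aged arrays, against 1.70 and 4.23 on the young ones (-2.46 ± 0.51). Its levels on the 12 HFSC arrays were higher, from 5.01 to 6.61. Dmkn, encoding the secreted dermokine, stood at 4.96 and 4.81 on the aged arrays, against 5.72 and 6.79 on the young ones (-1.37 ± 0.37). Krtdap, a differentiation-associated secreted protein, stood at 6.93 and 6.25, against 7.42 and 8.14 (-1.19 ± 0.41). None of these 3 overlapped between the ages. The spinous keratins Krt1 and Krt10, named after their values were seen, did overlap: Krt10 stood at 5.61 and 5.24 on the aged arrays, against 6.01 and 5.35 on the young ones.

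Protease inhibitors of the stefin and clade B serpin families were among the genes with the smallest unadjusted p. Stefins inhibit cysteine proteases such as cathepsins, and the mouse carries tandem clusters of near-identical copies of both families, so probes may share signal between copies. Cstdc4, a stefin of such a cluster, was not well above background on either aged array and stood at -1.31 (young WT) and 0.21 (young hCOL17A1), at least 19.3-fold higher in young IFE (adjusted p = 0.729; measured means of -5.51 in aged and -0.55 in young IFE). Stfa1, named after its values were seen, was measured on all 4 arrays, at -2.42 and -2.94 in aged IFE, against 2.08 and 4.08 in young IFE (-5.76 ± 1.35). Stfa3, likewise named afterwards, stood at 1.15 and 2.04 on the aged arrays, against 4.24 and 5.44 on the young ones. In all 3 stefins the ages did not overlap and both pairs differed by more than 2-fold. Cstdc4 passed the filter on low values through the young arrays alone.

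Serpinb3c stood at -1.56 and -1.70 on the aged arrays, against 0.93 and 3.80 on the young ones (-4.0 ± 0.72), and Serpinb3a at -2.79 and -3.23, against -0.43 and 2.06 (-3.82 ± 0.70; adjusted p = 0.729 for both). The young hCOL17A1 array was the highest for both, and young WT was above both aged arrays. S100a9, a subunit of the calprotectin alarmin found in stressed keratinocytes and in neutrophils, was not well above background on either aged array. It passed the filter on low values through the young arrays alone. It stood at -0.82 (young WT) and 1.5 (young hCOL17A1), at least 35.8-fold higher than in aged IFE (adjusted p = 0.729; measured means of -6.59 in aged and 0.34 in young IFE). The list of antimicrobial and alarmin genes as a whole had a median of -0.29 over 17 genes.

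Krt16 and Krt17 are keratins of stressed or wounded keratinocytes. Krt16 stood at 0.08 and 0.61 on the aged arrays, against 3.35 and 2.41 on the young ones (-2.53 ± 0.91), the WT pair differing by more than the hCOL17A1 pair. Krt17 stood at 2.83 and 3.81 on the aged arrays, against 4.25 and 5.18 on the young ones (-1.40 ± 0.34). It is also on the upper follicle list, and its levels on the 12 HFSC arrays ran from 5.59 to 6.86. Of 20 measured genes of this list 7 lay below and 3 above without overlap, against 21.8% and 15.6% of all genes, and 6 were at least 2-fold lower in both pairs, against 1.29%. The median was -0.24, so the list held genes on both sides.

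Sterol synthesis genes had a median below that of all genes. All 24 were measured, with a median of -0.79 (-0.35 in the WT pair and -1.06 in the hCOL17A1 pair). Both aged arrays lay below both young arrays for 12 and above them for 1, against 21.8% and 15.6% of all genes. At least 2-fold lower levels in both pairs were found for 5, against 1.29% of all genes. In this list 11 genes overlapped, among them Nsdhl (1.34) and Fdft1 (1.06), named after their values were seen. Both were higher in the hCOL17A1 pair, and another probe of Nsdhl gave -0.76. Sqle, squalene epoxidase, stood at 1.99 and 2.0 on the aged arrays, against 3.74 and 5.01 on the young ones, a difference of -2.38 ± 0.53 (adjusted p = 0.729) or 5.21-fold higher in young IFE. Msmo1, a methylsterol oxidase, stood at 1.03 and 1.17 on the aged arrays, against 2.54 and 4.74 on the young ones (-2.54 ± 0.63). Fdps, farnesyl diphosphate synthase, stood at 1.69 and 1.5, against 2.69 and 4.59 (-2.05 ± 0.62). In these 3 enzymes the 2 aged arrays lay close together, and the young hCOL17A1 array stood well above young WT. Idi1, isopentenyl diphosphate isomerase, stood at 4.74 and 4.56, against 5.03 and 7.18 (-1.46 ± 0.54), nearly all of it in the hCOL17A1 pair.

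Barrier lipid genes followed a similar order. Of 28 measured genes 12 lay below and 3 above without overlap, against 21.8% and 15.6% of all genes. The list's median was -0.49 (-0.19 in the WT pair and -0.96 in the hCOL17A1 pair). Fabp5, the epidermal fatty acid binding protein, stood at 3.77 and 3.43 on the aged arrays, against 5.47 and 6.43 on the young ones (-2.35 ± 0.56). Dgat2, which makes triglycerides, stood at 0.16 and -0.42, against 1.35 and 3.12 (-2.36 ± 0.69). Elovl4, which makes the very long acyl chains of barrier ceramides, stood at 5.15 and 4.97, against 6.10 and 6.54 (-1.27 ± 0.45), and its 2 probes gave -1.47 and -1.27. Elovl1 also lay lower by the probe used (-1.34 ± 0.62), and its other probe gave 1.21. Fasn, fatty acid synthase, named after its values were seen, lay on the other side, at -1.97 and 0.39 on the aged arrays, against -2.49 and -3.60 on the young ones.

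**Figure D4:**
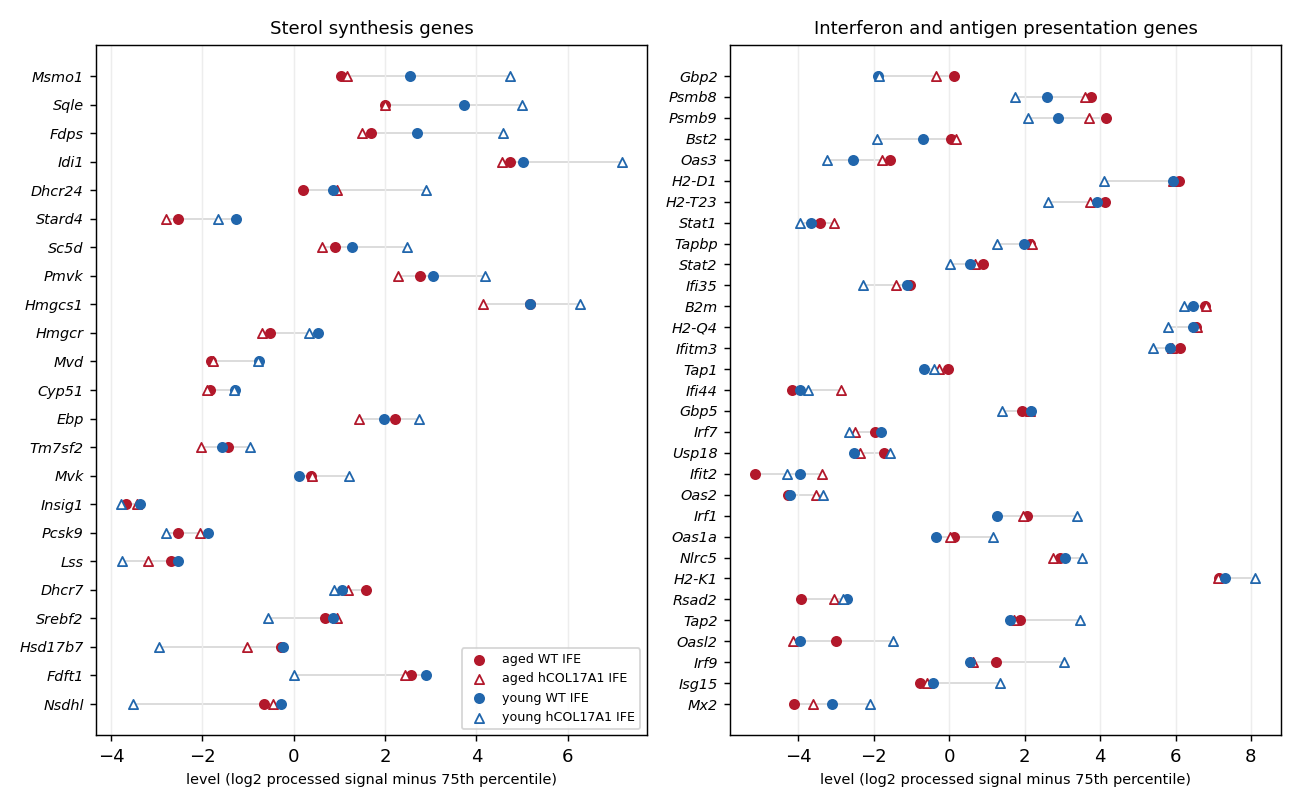
Level of each gene (x axis, log2 processed signal minus the array's 75th percentile) on the 4 IFE arrays, aged in red and young in blue, WT as circles and hCOL17A1 as open triangles, for 23 sterol genes (left, lowest difference at the top) and 31 interferon and antigen presentation genes (right, highest difference at the top). Sqle has both aged arrays near 2 and the young ones at 3.74 and 5.01; Psmb8 has both aged arrays at 3.59 and above and the young ones at 2.59 and 1.75.

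Of 30 junction genes, all measured, 12 lay below and 2 above without overlap, against 21.8% and 15.6% of all genes, with a median of -0.25. The gap junction gene Gjb2, encoding connexin 26, was not well above background on either aged array and stood at -1.03 and -0.65 on the young ones, at least 13.2-fold higher in young IFE (adjusted p = 0.729; measured means of -4.98 in aged and -0.84 in young IFE). Gjb2 passed the filter on low values through the young arrays alone. Desmosomal Dsp and the adherens junction gene Cdh1 differed little, by -0.30 and -0.26, though without overlap.

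The lists of T cell and of Langerhans and myeloid genes held members that lay lower in aged IFE beside members that overlapped between the ages. Cd3g, a chain of the T cell receptor complex, stood at -6.78 (aged WT) and -2.78 (aged hCOL17A1), against -1.81 (young WT) and 1.08 (young hCOL17A1), a difference of -4.42 ± 0.68 (adjusted p = 0.729). It was well above background on 1 of the 2 aged arrays. Cd3d stood at -4.13 and -2.97 on the aged arrays, against -2.04 and -0.02 on the young ones (-2.52 ± 0.67). The chemokine Xcl1, made by T and natural killer cells, was not well above background on the aged arrays and stood at -3.85 and 0.45 on the young ones, at least 7.94-fold higher in young IFE (adjusted p = 0.729; measured means of -4.79 in aged and -1.70 in young IFE). Xcl1 passed the filter on low values through the young arrays alone. Rgs1, a regulator of G protein signalling abundant in activated lymphocytes and named after its values were seen, stood at -5.57 and -2.99 on the aged arrays, against -0.61 and 1.74 on the young ones. Like Cd3g, Rgs1 was well above background on 1 of the 2 aged arrays. Over the whole T cell list 6 of 14 measured genes lay below and 0 above without overlap, against 21.8% and 15.6% of all genes. The other 8 overlapped, and the list's median was -0.27. The log2 of the summed levels of that list was 5.14 and 4.75 on the aged arrays, against 4.61 and 5.03 on the young ones, so the sum, which is carried by other members, overlapped.

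Of 15 measured Langerhans cell and myeloid genes 6 lay below and 1 above without overlap, against 21.8% and 15.6% of all genes. The list's median was -0.49. Of the 6, Cd207 and Ctss passed the filter on low values through the young arrays alone. The receptor gene Csf1r was the 1 above, at 4.27 and 4.44 on the aged arrays, against 4.16 and 3.11 on the young ones (0.72 ± 0.34), but the mean of its probes gave -0.38. The other 8 overlapped, among them Epcam (1.1) and Cd68 (0.76), and these 3 genes were named after their values were seen. Cd207, encoding the Langerhans cell lectin langerin, was not well above background on either aged array and stood at -2.98 and -0.95 on the young ones, at least 4.40-fold higher in young IFE (adjusted p = 0.729; measured means of -4.11 in aged and -1.97 in young IFE). H2-Ab1, a class II antigen-presenting molecule, stood at 0.76 and -1.57 on the aged arrays, against 1.82 and 1.66 on the young ones (-2.14 ± 0.82). Cathepsin S, Ctss, was not well above background on the aged arrays and stood at -2.11 and -0.79 on the young ones, at least 10.4-fold higher in young IFE (adjusted p = 0.729; measured means of -5.62 in aged and -1.45 in young IFE). The log2 of this list's summed levels was 4.98 and 4.81 on the aged arrays, against 5.01 and 4.14 on the young ones. Bright members such as Csf1r weigh most in this sum.

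Haemoglobin transcripts, which mark red cells and their precursors, also differed. Hba-a1 stood at -0.70 and -0.59 on the aged arrays, against 2.07 and 3.63 on the young ones (-3.50 ± 0.73), and Hba-a2, named after its values were seen, at -2.67 and -2.53, against 1.22 and 4.68. These 2 genes are near-identical copies. Of the other measured erythroid genes Alas2 differed by 0.21 with overlap, and Slc4a1, the red cell anion exchanger, by -0.29 without overlap. The part of immune and red cell RNA in the other differences was not tested.

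Interferon and antigen presentation genes had the highest median fitted difference of the 28 gene lists, 0.33 (0.24 in the WT pair and 0.56 in the hCOL17A1 pair). They were not the highest within either pair. The cell cycle list had 0.45 in the WT pair, and the glycolysis and hypoxia list had 0.66 in the hCOL17A1 pair. Of 31 measured genes 12 lay above and 5 below without overlap, against 15.6% and 21.8% of all genes. At least 2-fold higher levels in both pairs were found for 3, against 1.14% of all genes. Psmb8, a catalytic subunit of the immunoproteasome, stood at 3.75 and 3.59 on the aged arrays, against 2.59 and 1.75 on the young ones (1.51 ± 0.49; adjusted p = 0.729). Psmb9, its partner subunit, named after its values were seen, stood at 4.16 and 3.71, against 2.88 and 2.10 (1.44 ± 0.72). Oas3, a sensor of double-stranded RNA, stood at -1.58 and -1.79, against -2.56 and -3.24 (1.21 ± 0.43), and Bst2, encoding tetherin, at 0.04 and 0.17, against -0.69 and -1.92 (1.40 ± 0.56). In these 4 genes the aged arrays lay close together and above both young ones. Mx2, an interferon-induced dynamin-like GTPase, lay on the other side, at -4.11 and -3.62, against -3.10 and -2.10 (-1.26 ± 0.41). Other interferon-stimulated genes of the list, such as Isg15 (-1.14) and Rsad2 (-0.73), also lay lower.

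Immunity-related GTPases are induced by interferon gamma and act on vacuoles that hold intracellular pathogens. Of these Irgm2 stood at 0.85 and 0.21 on the aged arrays, against -0.98 and -3.98 on the young ones (3.02 ± 0.72; adjusted p = 0.729), with 1 of the 2 young arrays well above background. Irgm1, Igtp and the guanylate-binding proteins Gbp2 and Gbp5 were named after their values were seen, so they say nothing of their families as a whole. Irgm1 stood at -1.07 and -1.10 on the aged arrays, against -2.35 and -3.28 on the young ones. Igtp stood at 0.26 and -0.32, against -1.81 and -1.44, and Gbp2 at 0.13 and -0.34, against -1.90 and -1.86. Gbp5 overlapped, at 1.92 and 2.14, against 2.18 and 1.39. For Igtp and Gbp2 the young arrays also lay close together, and the SE of their differences, which takes in the spread of the HFSC arrays, was 1.31 and 1.37.

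Cell cycle genes had a median of 0.23 over 39 measured members, with 0.45 in the WT pair and -0.03 in the hCOL17A1 pair. Both aged arrays lay above both young ones for 12 of 39 and below for 0, against 15.6% and 21.8% of all genes. Cyclin D1, Ccnd1, which drives entry into the cycle, stood at 3.44 and 3.33 on the aged arrays, against 2.78 and 1.65 on the young ones (1.17 ± 0.34). Rrm1, a subunit of ribonucleotide reductase, stood at 2.12 and 2.48, against 1.51 and 0.32 (1.38 ± 0.41). Mcm7, part of the replicative helicase, stood at 4.36 and 4.26, against 3.86 and 2.29 (1.24 ± 0.47). The WT pair differed by less than 2-fold in all 3 genes. Kif11, a mitotic kinesin, stood at -1.86 and -0.92, against -2.49 and -3.67 (1.70 ± 0.80). None of the list passed the test, and 3 of 39 had an unadjusted p under 0.05, a share near the 6.54% of all genes.

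Glycolysis and hypoxia genes were split. Of 27 genes, all measured, 12 lay above and 3 below without overlap, against 15.6% and 21.8% of all genes. The list's median was 0.20 (0.14 in the WT pair and 0.66 in the hCOL17A1 pair). An unadjusted limma p under 0.05 was found for 9 of 27, against 6.54% of all genes. Bnip3, a mitochondrial protein induced in hypoxia, stood at 4.81 and 5.13 on the aged arrays, against 4.16 and 3.70 on the young ones (1.04 ± 0.35), and its 3 probes ran from 0.59 to 1.19. Egln1, a prolyl hydroxylase that marks HIF1A for degradation, stood at -0.96 and -1.29, against -2.14 and -4.01 (1.95 ± 0.71), with 1 of the 2 young arrays well above background. Pgam1, phosphoglycerate mutase, stood at 6.35 and 6.54, against 6.18 and 5.13 (0.79 ± 0.30). Ldha, lactate dehydrogenase, lay lower by the probe used, at 5.88 and 6.04, against 6.09 and 7.44 (-0.80 ± 0.28), and its 3 probes ran from -0.80 to 0.21.

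Genes of the basal layer and its attachment had small list medians, with members on both sides. The median of 20 basal identity genes was 0.09 and of 22 hemidesmosome and basement membrane genes -0.01. Of the 20 basal identity genes 4 lay below and 5 above without overlap, against 21.8% and 15.6% of all genes. Of the 22 hemidesmosome and basement membrane genes 8 lay below and 4 above. In that list 6 had an unadjusted limma p under 0.05, against 6.54% of all genes. Col17a1, the mouse gene of type XVII collagen, stood at 6.92 (aged WT) and 6.69 (aged hCOL17A1), against 7.07 (young WT) and 7.36 (young hCOL17A1), a difference of -0.41 ± 0.21 (adjusted p = 0.729) with no overlap. In the WT pair alone the difference was -0.14. Ilk, integrin-linked kinase, stood at 0.91 and 0.62, against 0.37 and -1.73 (1.45 ± 0.42), and Frem2, an extracellular matrix protein of the basement membrane, at 1.21 and 1.43, against 1.63 and 3.23 (-1.11 ± 0.36). Col4a1, a chain of basement membrane collagen, was lower on both aged arrays, at -3.15 and -2.08, against 0.27 and -0.96 (-2.27 ± 0.87). Dst, encoding the hemidesmosomal plakin BPAG1, lay higher by its brightest probe (0.83 ± 0.26), and its 4 probes ran from -2.16 to 0.83. Sparc, a matrix-binding protein, stood at 3.13 and 3.43, against 1.93 and 2.56 (1.04 ± 0.24), with its 3 probes from 0.5 to 1.46, and Mmp2, a gelatinase, at 0.31 and -0.74, against -1.48 and -3.83 (2.44 ± 0.69).

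The atypical protein kinase C genes encode kinases of cell polarity. Prkci stood at 3.93 and 3.82 on the aged arrays, against 3.83 and 4.93 on the young ones (-0.51 ± 0.30; adjusted p = 0.732), and Prkcz at -0.40 and -0.56, against -0.77 and -1.60 (0.71 ± 0.94; adjusted p = 0.877). Prkci overlapped between the ages, and the 3 probes of Prkcz ran from -0.40 to 1.11.

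Genes of the p53 response and senescence had a median of -0.64 over 24 members, with -0.21 in the WT pair and -1.03 in the hCOL17A1 pair. Of these 9 lay below and 0 above without overlap, against 21.8% and 15.6% of all genes. Mdm2, the ubiquitin ligase that p53 induces against itself, stood at 1.70 and 1.73 on the aged arrays, against 1.88 and 3.66 on the young ones (-1.06 ± 0.47). The cell cycle inhibitors that are widely used as senescence markers, named after their values were seen, overlapped between the ages. Cdkn2a stood at -3.72 and -3.16, against -3.51 and -3.69, and Cdkn1a at 1.72 and 1.53, against 2.48 and 1.58.

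Of 4 signalling lists, the Notch list had a median of -0.08 over 20 genes, the Wnt list -0.10 over 34 and the EGF receptor list -0.17 over 26. The BMP and TGF-beta list had -0.61 over 33 genes, with -0.03 in the WT pair and -0.64 in the hCOL17A1 pair. Of its genes 8 lay below and 4 above without overlap, shares near the 21.8% and 15.6% of all genes. Ltbp1, which binds latent TGF-beta, stood at -2.37 and -1.55, against -1.45 and 2.05 (-2.26 ± 0.56), and its other probe gave -0.13. On the 12 HFSC arrays Ltbp1 ran from 2.79 to 5.42. Hes1, a Notch target, stood at 1.59 and 1.49 on the aged arrays, against 1.81 and 4.40 on the young ones (-1.56 ± 0.61). The Notch effector Rbpj lay on the other side, at 2.90 and 2.72, against 2.60 and -1.27, and its 2 probes gave 2.15 and -0.49. Insr, the insulin receptor, stood at 1.82 and 2.02, against 1.27 and -0.95, with its 3 probes from 0.0 to 1.76. In these 3 genes the young hCOL17A1 array was far from the other 3.

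**Figure D5:**
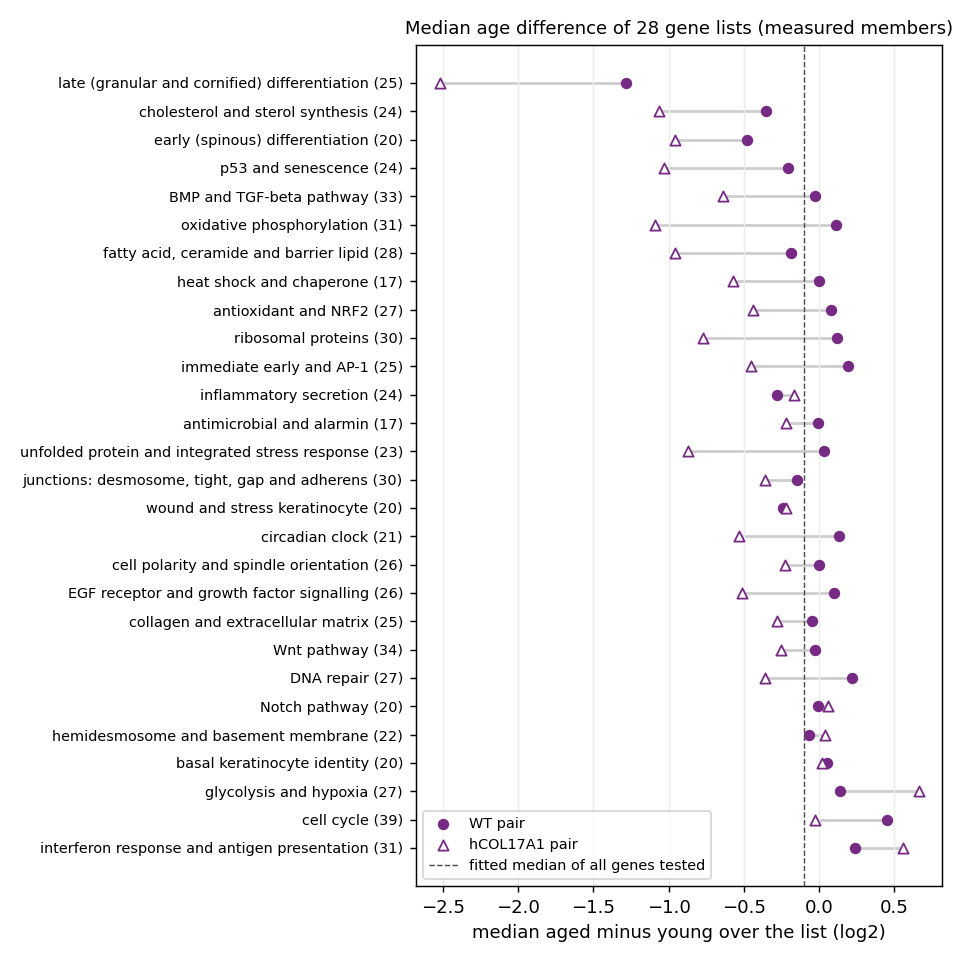
Median aged minus young difference (x axis, log2) over the measured members of each of 28 gene lists, whose number stands in brackets, in the WT pair (filled circles) and the hCOL17A1 pair (open triangles); the dashed line is the fitted median of all genes, -0.10. The granular and cornified list lies lowest in both pairs, and oxidative phosphorylation genes lie at 0.11 in the WT pair and -1.09 in the hCOL17A1 pair.

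Of the 24 genes with official symbols and the smallest unadjusted p among those at least 2-fold in both pairs, 12 in each direction, several have been described. Among the higher ones, Ass1, argininosuccinate synthase, stood at 1.79 and 0.89 on the aged arrays, against 0.68 and -0.98 on the young ones (1.49 ± 0.30), and its other probe gave -0.29. Pyy, which encodes the hormone peptide YY, stood at 1.49 and 1.47, against -0.02 and -1.99 (2.48 ± 0.43). Skint4, of a gene family with roles in the upkeep of epidermal T cells, stood at 0.31 and 0.69, against -3.17 and -0.50 (2.34 ± 0.52), and its 2 probes gave 1.42 and 2.34. The ages did not overlap in any of these.

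The zinc finger gene Sall2, which passed the filter on low values through the aged arrays alone, stood at -2.28 and -2.39 there and was not well above background on the young ones, at least 4.32-fold higher in aged IFE (adjusted p = 0.724; measured means of -2.34 in aged and -5.33 in young IFE). Ly6g6d, a Ly6 family surface protein gene, was likewise measured on the aged arrays only, at least 5.60-fold higher (adjusted p = 0.729; measured means of -1.96 in aged and -5.34 in young IFE). The neurotrophin gene Ntf5 (1.68 ± 0.40), the muscle regulator Myog (1.36 ± 0.28), Adgrg7 (2.69 ± 0.55), Upk3b (2.30 ± 0.55) and Purg (2.43 ± 0.59) completed the higher group with 4930459C07Rik, and another probe of Purg gave -0.86. The gene 4930459C07Rik also passed the filter through the aged arrays alone. Adgrg7 and Upk3b were each well above background on 1 of the 2 young arrays.

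Among the lower ones, Rps4l, a ribosomal protein S4-like gene, stood at -2.98 and -1.75 on the aged arrays, against 0.26 and 1.66 on the young ones (-3.33 ± 0.49; adjusted p = 0.724), with near-identical copies elsewhere possible. Arhgap24, a GTPase-activating protein, stood at -5.02 and -3.67, against -1.56 and 1.67 (-4.40 ± 0.69), with 1 of the 2 aged arrays well above background. Ank, a membrane protein of pyrophosphate export, stood at -0.82 and -0.63, against 0.48 and 2.74 (-2.34 ± 0.44). On the 12 HFSC arrays Ank ran from 3.75 to 4.73. The ages did not overlap in these 3. Fam171b (-2.46 ± 0.44), Abtb2 (-2.61 ± 0.53) and 2310050C09Rik (-4.45 ± 0.88) made up the rest. Fam171b and Abtb2 were each well above background on 1 of the 2 aged arrays.

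The test of whether the age difference differed between WT and hCOL17A1 IFE called 0 of 27881 genes (0%) in limma at an adjusted p of 0.05, with 2537 genes (9.10%) at an unadjusted p under 0.05 and a lowest adjusted p of 0.0619. Opposite differences of at least 2-fold were found for 179 genes higher in the WT pair and lower in the hCOL17A1 pair and for 228 the other way.

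In the HFSC of hCOL17A1 mice, aged and young arrays lay on different slides, so age there cannot be told apart from slide, and their values are given beside those of IFE without a test. Stfa1 stood at -5.49 and -3.71 on the aged tHFSC and aHFSC arrays, the 2 HFSC states of the labels, against 1.59 and 4.33 on the young ones. Klk5 stood at -2.32 and -3.44, against 3.47 and 4.31, and Sqle at 2.02 and 2.56, against 3.91 and 4.55. These 3 genes thus lay lower on the aged arrays there too. Irgm2 stood at -0.06 and 0.65, against -2.12 and -1.35, and Psmb8 at 0.60 and 2.02, against -0.64 and 0.28, both higher on the aged arrays. Gbp2 did not keep that order, with -5.02 and -0.59, against -4.17 and -3.86, and neither did Irgm1 and Igtp. Psmb9, higher in aged IFE, overlapped there, at 0.39 and 2.47, against 1.25 and 2.04. So did Rrm1, at -0.35 and 1.27, against 0.46 and 1.95. S100a9, lower in aged IFE, overlapped at -5.36 and -0.83, against -6.7 and 1.49. Gjb2 overlapped too, at -5.19 and 4.24, against -1.98 and 2.15. The genes given here are examples and do not measure how often the IFE order was kept.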

How the data were processed

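Cy3-labelled amplified cDNA of sorted cells was hybridised to 16 one-colour Agilent arrays, 1 per group. Per the file headers, spots were read with Feature Extraction 11.5.1.1 on a design built on mm9, and the authors deposited processed signals in linear-scale intensity units from which background had been subtracted, without scaling between arrays. The deposited value table holds log2 values that lie within 0.02 of log2 of that signal after subtraction of each array's 75th percentile for at least 99.65% of probes on the first HFSC array and more elsewhere.

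Here each array's 75th percentile was subtracted from its log2 processed signals, outlier spots were left out and spots of a probe averaged. The filter kept 42863 probes, those that at least 2 of the 4 IFE arrays held well above background, and a gene is its probe with the highest mean over those arrays (27881 genes, 18131 with an official symbol). A gene well above background on neither array of an age passed through the other age alone. Its direction is then partly set by the filter. The file of 1 HFSC array ends early and 9264 probes were filled from the value table. No spot of the IFE arrays was saturated. Between 73.8% and 74.7% of their probes were well above background, and the number of arrays limits the precision.

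Age was tested with limma 3.58.1 in R 4.3.3 (lmFit, eBayes with a trend, two-sided, Benjamini-Hochberg over all genes, threshold 0.05) on all 16 arrays, with terms for 6 HFSC conditions, an aHFSC shift, and IFE intercept, age and transgene (6 residual degrees of freedom, 5 with the age-by-transgene term). P-values therefore measure scatter around the additive fit, not variation between animals. The script was tested on simulated data. Named genes with official symbols are, for each direction, the 12 past the threshold or, failing that, those at least 2-fold in both pairs and well above background on both arrays of the brighter age with the smallest unadjusted p, up to 4 members of each of 28 program and 16 marker lists, and Col17a1, Itga6, Ly6a, Cd34, Prkci and Prkcz. The members and lists were chosen with earlier results of these data known, and a few named genes are not reported here. A gene not well above background on both arrays of an age is given as at least N-fold: the brighter age's mean was set against the dim age's mean of, per array, either the dim probe or the dimmest probe that was well above background, whichever was higher.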

Additional observations from a re-analysis of the deposited data

Results flagged for a closer look

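The medians of 2 lists lay on opposite sides in the genotype pairs, at least 1 log2 unit apart, and the difference between pairs was not tested for a list. Oxidative phosphorylation genes had a median aged minus young difference of 0.11 in the WT pair and -1.09 in the hCOL17A1 pair, over 31 genes. On 28 of the 31 the young hCOL17A1 array held the highest level. Sebocyte markers had a median of -0.44 in the WT pair and 0.76 in the hCOL17A1 pair, over 8 genes. Their log2 summed level was 2.98 and 3.02 on the aged arrays, against 3.04 (young WT) and 2.48 (young hCOL17A1).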

How the results depend on the processing

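The age term called 0 genes under every alternative that keeps all 16 or only the IFE arrays, except eBayes without a trend (1 gene). Leaving out 1 array gave 0 to 382 genes. The age-by-transgene test called 4 genes with normexp background correction and 3 with quantile normalization, and 0 under the other alternatives. Genes at least 2-fold in both pairs numbered 51 higher and 94 lower with normexp, all among the main 318 and 361, and 171 and 193 among probes well above background on all 4 IFE arrays. Without a filter 725 were lower, and with the filter and probe choice over 16 arrays 566. Against the young WT array alone, an alternative chosen after seeing the data, both aged arrays were at least 2-fold higher for 528 genes and lower for 443, and against young hCOL17A1 alone 3187 were higher and 4626 lower; the cause was not tested. The median of the granular and cornified list stayed between -2.52 and -1.28 and that of the sterol list between -1.06 and -0.35 in all settings run. Each bound is the median of 1 genotype pair, which leaving out 1 IFE array returns. The Notch median was 0.12 with quantile normalization and -0.08 to 0.06 with 1 array left out, the antioxidant median -0.44 to 0.08 with 1 array left out, the alarmin median 0.01 among probes above background on all 4 arrays, and the basal median -0.03 with the filter over 16 arrays. By the mean of their probes Dst was -0.64, Cd68 -0.67 and Csf1r -0.38. With 1 array left out Cd34 ran from -0.49 to 0.28, Cdkn2a from -0.21 to 0.53, Krt1 from -0.25 to 0.75, Prkci from -1.11 to 0.10, Cd68 from -0.08 to 1.59, Fdft1 from -0.33 to 2.45, Gbp5 from -0.26 to 0.75 and Nsdhl from -0.37 to 3.05. The other 102 of 112 named genes kept their direction. For genes chosen as at least 2-fold in both pairs, leaving out 1 IFE array could not reverse it, since 1 pair then remains. Leaving out an HFSC array cannot change a fitted age difference. No paired analysis was possible because the labels give no replicate numbers, beyond the pairing by genotype, and each group has 1 array. Probes near background limit the differences of dim genes.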

Other observations

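In housekeeping lists the young hCOL17A1 array often held the highest level. Ribosomal protein genes had a median difference of 0.12 in the WT pair and -0.77 in the hCOL17A1 pair, and that array held the highest level for 23 of 30. Unfolded protein and stress response genes had a median of 0.03 in the WT pair and -0.87 in the hCOL17A1 pair over 23 genes. Bulge markers stood higher on young hCOL17A1 than on young WT by a median of 1.44 over 18 genes, and upper follicle markers by 1.27 over 10, against 0.58 and 0.37 between the 2 aged arrays.

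Circadian genes had a median of 0.13 in the WT pair and -0.53 in the hCOL17A1 pair over 21 genes. Bhlhe40, a repressor of the clock, stood at 1.18 and 1.53 on the aged arrays, against 0.06 and 0.40 on the young ones (1.13 ± 0.33; limma adjusted p = 0.729), without overlap. Gsta3, a glutathione transferase, stood at 0.45 and 0.33 on the aged arrays, against -0.93 and -1.66 on the young ones, and both of its probes lay higher in aged IFE (1.68 and 2.44). Krt20, a keratin of Merkel cells, was well above background on the aged arrays only, at least 1.80-fold higher in aged IFE (adjusted p = 0.729; measured means of -3.51 in aged and -4.55 in young IFE).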
